A study of Mus musculus with 19 samples.

Results

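The data described here are the transcriptomes of normal mouse neocortex at embryonic day 13.5 (E13.5), taken from the 7 embryos labelled control (ctrl) among the 19 embryos of a study of the chromatin remodeller gene *Ino80*. All 7 ctrl embryos were E13.5 on a mixed C57BL/6 and 129 background, the tissue was freshly micro-dissected cerebral cortex, and each library came from 1 embryo. The labels call these embryos control and do not give their alleles, so whether a ctrl embryo carried the *Emx1*-Cre used elsewhere in the study, or floxed alleles, was not known here. The embryos kept the letters of their labels: A, B, C and D were in batch 1, and F, H and I in batch 2. A and B came from litter 1, C from litter 4, D and F from litter 5, and H and I from litter 7. A, C, F and H were labelled female, and B, D and I male. Total RNA depleted of ribosomal RNA was read by Click-seq, a method that primes reverse transcription at random sites and tags each cDNA molecule with a molecular identifier, so reads from unspliced RNA were counted beside those from mRNA.

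At this age the cortical wall is built by neural progenitor cells. Apical progenitors (radial glia) line the ventricle and divide there, intermediate progenitors derived from them divide away from it, and the newborn projection neurons migrate outward to form the preplate and the first cortical layers. Cajal-Retzius cells at the surface come from the edges of the cortex, and GABAergic interneurons arrive by migration from the ganglionic eminences below. Vessels, microglia and meninges contribute a minority of the cells.

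The libraries held 1539303 to 5205035 counts on genes, with a median of 3152460, and no 2 libraries held identical values. Embryos H and I stood apart from the other 5 in reads outside genes, with 11.1% and 12.5% of reads assigned to no gene against 4.96% to 6.56% in the others. They also held 0.527% and 0.561% of counts on genes annotated as antisense, against 0.333% to 0.381%. The 3 batch 2 libraries were the shallowest, at 1539303 (F), 2187537 (H) and 1809087 (I) counts. In CPM, counts scaled to a common library size by TMM factors, the floor of 3 counts used here lay between 0.601 and 1.88. Intervals and floors in this text cover counting error alone. Levels are given in CPM with the standard deviation (SD) between the 7 embryos.

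Genes whose whole length lies inside another gene on the same strand could not be read. Of 434 such protein-coding genes 431 (99.3%) were at 0 in all 7 libraries, whereas of 723 protein-coding genes covered by genes on the opposite strand alone 37.5% were at 0, close to the 35.0% of 12146 genes that shared no sequence with another gene. Counts therefore behaved as reads on the strand of the gene over its whole length, introns included, with reads shared by 2 genes set aside. *Sox2*, the progenitor factor that lies inside the noncoding gene *Sox2ot*, was at 0 counts in every library for this reason, as were the progenitor gene *Sox1*, the neuronal genes *Neurod1* and *Tubb3*, and *Pou3f3*. Such genes are left out of the list counts given here.

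Of 51912 genes, 13766 reached a mean of 1 CPM over the ctrl embryos, 9132 reached 10 CPM, 2386 reached 100 CPM and 85 reached 1000 CPM. In single embryos the number at 1 CPM or more ran from 13461 to 14681. Thinned to the 1539303 counts of the shallowest library, the embryos had 15669 to 16914 genes with any count, and the highest numbers were those of H (16914) and I (16904). On average 50% of the counts lay on 916 genes. The 20 most abundant genes held 7.91% ± 0.418 of counts (SD, n = 7), the top 100 held 18.3% ± 0.784 and the top 1000 held 51.8% ± 1.04.

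Most of the 20 genes with the highest counts in the ctrl neocortex were very long protein-coding genes, beside short noncoding ones such as *mt-Rnr2*, *Gm26917* and *Malat1*. On the CPM scale, which is not per length, *Auts2*, a gene linked to neurodevelopmental disorders, stood highest at 8578 ± 854 CPM (SD, n = 7), followed among protein-coding genes by *Dcc*, the receptor for the axon guidance cue netrin, at 5889 ± 632 CPM. The nuclear factor I genes *Nfib* (4810 ± 347 CPM) and *Nfia* (4353 ± 214 CPM), which encode transcription factors of cortical progenitors and neurons, came next. These 4 genes are the markers given for this tissue, and each was among the 7 most abundant genes. *Auts2* ranged from 7360 CPM in F through a median of 9057 CPM to 9612 CPM in B, and its 3 batch 2 values (7360, 7664 and 8138 CPM) lay below the 4 of batch 1 (9057 to 9612 CPM). *Dcc* ranged from 5164 CPM in F through a median of 6121 CPM to 6558 CPM in C, and its batches overlapped, since B was at 5335 CPM and H at 6121 CPM.

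Other protein-coding genes of the top 20 included *Nrg1*, a ligand of ErbB receptors (3898 ± 761 CPM), *Tenm4*, a teneurin of the cell surface (3523 ± 222 CPM), *Ccser1* (3313 ± 479 CPM), the transcription factor genes *Tcf4* (3192 ± 160 CPM), *Meis2* (2489 ± 147 CPM) and *Sox5* (2251 ± 528 CPM), and *Setbp1* (3146 ± 204 CPM). The cytoskeletal and adhesion genes *Ctnna2* (2720 ± 519 CPM) and *Map1b* (2392 ± 210 CPM), the RNA-binding *Celf2* (2642 ± 520 CPM), the ephrin receptor *Epha5* (2292 ± 319 CPM) and the receptor phosphatase *Ptprd* (2202 ± 454 CPM) were also among them. Of the top 20 genes 17 were protein-coding, and 15 spanned more than 300 kb, *Auts2* from 131437333 to 132543344 on chromosome 5 of GRCm38 (1106012 bases) and *Nfib* over 415578 bases of chromosome 4.

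**Figure D1:**
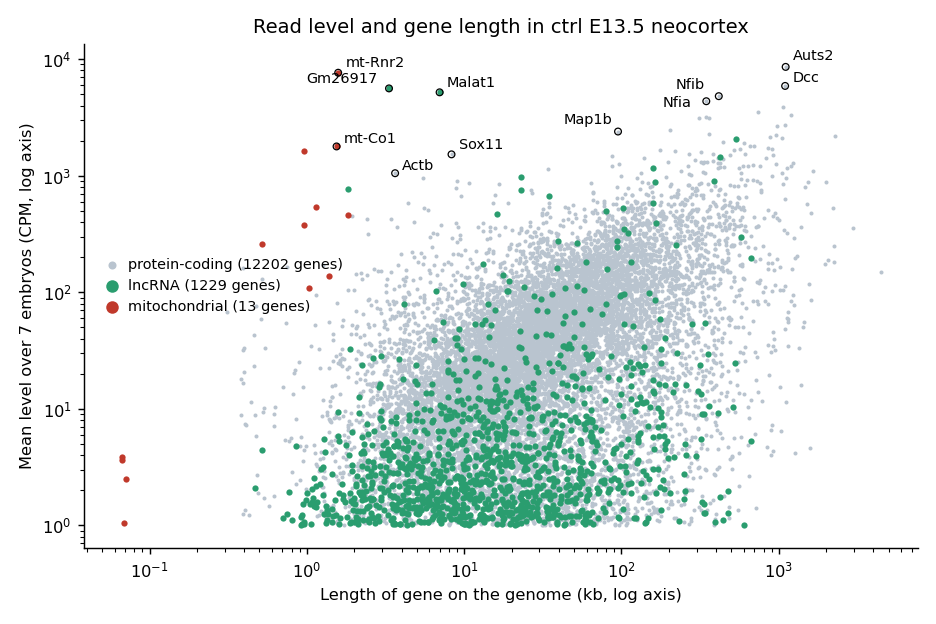
Mean level over the 7 ctrl embryos (CPM, log axis) against the length of the gene on the genome (kb, log axis) for genes at 1 CPM or more, with protein-coding genes in grey, lncRNAs in green and mitochondrial genes in red. Levels rise with length among the protein-coding genes, and the short genes near the top are mitochondrial, *Malat1*, *Gm26917*, *Sox11* and *Actb*.

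Length and level went together across genes, as the plot of level against gene length shows. Over 12200 protein-coding genes at 1 CPM or more, Spearman's rho of level with span was 0.465 and with exon length 0.485, given as a description since reads accumulate along a gene and genes are not independent replicates. The 230 protein-coding genes over 500 kb, 221 of them at 1 CPM or more, took 11.5% ± 0.821 of all counts (SD, n = 7), with a median of 190 CPM. The 1946 genes of 100 to 500 kb at 1 CPM or more had a median of 90.5 CPM, and the 2370 of 1 to 10 kb a median of 9.19 CPM. Per kb of span the order turned, with a median of 0.238 CPM per kb for the longest genes and 1.71 CPM per kb for the 1 to 10 kb genes. Per kb of exons it did not turn, with medians of 18.7 and 3.64 CPM per kb.

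Ranked per kb of merged exons, the protein-coding genes were led by *Mpped2* (482 CPM per kb), *Dcc* (447), the histone gene *Hist1h2ak* (407), *Nfia* (400) and *Actb*, cytoplasmic actin. Ranked per kb of span, they were led by short genes: *Hist1h2ak* (407 CPM per kb of span), *Actb* (288), and the histone genes *Hist2h2ac* (249), *Hist1h1e* (233) and *Hist1h1b* (221), with *Sox11* (183), *Marcksl1* (175) and the chaperone *Hsp90ab1* (173) behind. The 15 leading genes of each ranking shared 3 names, *Hist1h2ak*, *Actb* and *Rplp1*. Histone genes and ribosomal protein genes have near-identical copies, and reads with more than 1 match (17.3% to 18.5% of reads) were not counted, so their levels are uncertain. Since the 2 lengths gave different rankings, a rank by CPM or on 1 length alone holds for that scale only.

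By gene class, protein-coding genes of the nucleus held 94.7% ± 0.182 of counts (SD, n = 7; 94.4% to 94.9%). Long noncoding RNAs (lncRNAs) held 3.68% ± 0.138, mitochondrial genes 1.29% ± 0.121, small noncoding RNAs 0.125% ± 0.0182, pseudogenes 0.123% ± 0.0135 and nuclear ribosomal RNA rows 0.0391% ± 0.0550. The widest 95% Wilson interval of a protein-coding share in a single library was ± 0.0354 percentage points, less than the spread between embryos. The ribosomal RNA share was the least even: embryos A, B, C and F held 0.00146% to 0.00676%, D 0.0251%, H 0.102% and I 0.133%. Without H and I its mean was 0.00770%. Nearly all of it was *CT010467.1* on chromosome 17, at 14.4 to 255 CPM in A, B, C, D and F, and at 983 CPM in H and 1291 CPM in I.

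The mitochondrial counts were mainly ribosomal. *mt-Rnr2*, the large ribosomal RNA of the mitochondrion, stood at 7643 ± 738 CPM and was the second most abundant gene of the tissue, and *mt-Rnr1*, the small one, at 1634 ± 375 CPM. *mt-Co1*, a subunit of cytochrome oxidase, was the highest mitochondrial mRNA at 1782 ± 139 CPM, above *mt-Cytb* (538 ± 115 CPM) and *mt-Nd5* (456 ± 71.4 CPM). Of 37 mitochondrial genes 13 reached 1 CPM.

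Among lncRNAs 1229 of 8612 reached 1 CPM. *Gm26917* led at 5609 ± 501 CPM, and it ends 12 bases before the ribosomal row *CT010467.1*, at 39843013 to 39846341 on chromosome 17. Classes follow the annotation, so any ribosomal reads on *Gm26917* would count in the lncRNA share and not in the ribosomal one. Whether it holds such reads was not tested. *Malat1*, a nuclear RNA of splicing speckles, followed at 5191 ± 639 CPM, and its batch 2 values (4214 to 4872 CPM) lay below those of batch 1 (5298 to 5889 CPM). *Mir99ahg*, a host gene of microRNAs (2081 ± 157 CPM), *2610307P16Rik* (1445 ± 90.6 CPM) and *Gm29260* (1158 ± 214 CPM) came next. Of 46 noncoding RNAs listed by name and readable, 38 reached 1 CPM, 31 reached 10 CPM and 8 had at most 3 counts in every library. The list included *Xist*, the RNA that coats the inactive X chromosome, *Miat* (471 ± 42.2 CPM), *Dleu2* (493 ± 24.6 CPM), *Pantr1* (349 ± 40.9 CPM), *Sox2ot* (300 ± 39.7 CPM) and *Rmst* (246 ± 114 CPM).

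*Mir99ahg* and *Mir9-3hg* (673 ± 16.9 CPM) are long transcripts that carry microRNA hairpins, and their mature microRNAs are shown because the hosts were among the most abundant noncoding RNAs. A microRNA is cut from its hairpin and pairs with target mRNAs through its seed, bases 2 to 8, printed here in capitals. The sequences are RefSeq's, on the plus strand of GRCm38.p6, with miR-99a-5p at chr16:77598940-77598961, let-7c-5p at chr16:77599672-77599693 and miR-125b-5p at chr16:77646279-77646300 inside *Mir99ahg*, and the miR-9 pair at chr7:79505279-79505301 and chr7:79505318-79505339 inside *Mir9-3hg*:
miR-99a-5p: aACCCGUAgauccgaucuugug
let-7c-5p: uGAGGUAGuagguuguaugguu
miR-125b-5p: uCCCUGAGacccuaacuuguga
miR-9-5p: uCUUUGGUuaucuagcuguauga
miR-9-3p: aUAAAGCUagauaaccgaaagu
The 5 seeds differ from one another. Counts on a host gene come from its long transcript and do not measure the mature microRNAs, and 1162 of the 2207 annotated microRNA genes had no sequence of their own to be counted on. Among small noncoding rows *Gm23935*, annotated as a microRNA of 57 bases, stood at 477 ± 112 CPM, *Rpph1*, the RNA of ribonuclease P, at 425 ± 82.0 CPM and *Rmrp* at 159 ± 23.3 CPM. Only 10.97% of the length of *Rpph1* lies outside other genes of its strand, so its level is uncertain. The highest pseudogenes were *Gm10033* (53.5 ± 9.19 CPM), *Gm49329*, *5830417I10Rik*, *Ppp4r1l-ps* and *2700099C18Rik* (35.2 ± 6.21 CPM).

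Transcription factor genes, counted once each from the factor lists, took 6.34% ± 0.0635 of counts (SD, n = 7). Of 429 listed, 9 had no sequence of their own, and of the other 420 genes 297 reached 1 CPM, 242 reached 10 CPM, 114 reached 100 CPM and 13 reached 1000 CPM, while 107 had at most 3 counts in every library. Per kb of exons the highest was *Nfia* at 400 ± 19.6 CPM per kb, then *Nfib* at 322 ± 23.2, *Npas3* at 237 ± 22.9, and *Meis2* at 207 ± 12.2. The order of these 4 genes is that of exon length: per kb of span *Npas3* stood at 1.73 and *Meis2* at 12.3 CPM per kb. *Sox11*, a factor of newborn neurons whose gene has no intron, reached 183 ± 29.3 CPM per kb of exons and led the factors per kb of span. *Sox5*, which acts in deep-layer neurons, reached 157 ± 36.8 CPM per kb of exons, and its lowest embryo was H and its highest B.

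**Figure D2:**
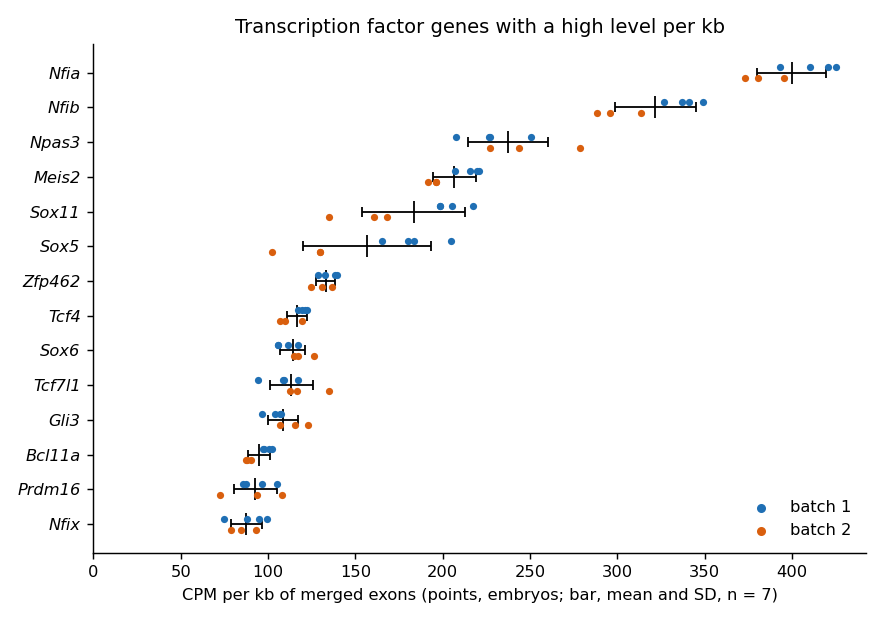
Level per kb of merged exons (CPM per kb) of 14 of the 15 transcription factor genes that stood highest on this scale, with 1 point per ctrl embryo, batch 1 in blue and batch 2 in orange, and bars for the mean and SD over 7 embryos. *Nfia* and *Nfib* stand above the other genes plotted in every embryo, and the widest spread is that of *Sox5* (157 ± 36.8 CPM per kb).

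The nuclear factor I family kept 1 order in all 7 embryos and on both lengths, *Nfia* above *Nfib*, *Nfix* and *Nfic*. The log2 ratio per kb of exons was 0.32 ± 0.06 (SD, n = 7) between *Nfia* and *Nfib*, 1.88 ± 0.13 between *Nfib* and *Nfix*, and 4.27 ± 0.12 between *Nfix* and *Nfic*. Each of these had a two-sided exact permutation p of 0.0156, the smallest that sign changes over 7 embryos can give, and an adjusted p of 0.0657 over the 496 pairs of neighbours tested in all lists. No pair passed the adjusted threshold, 154 had an unadjusted p under 0.05, and 118 had the same direction in all 7 embryos, of which 69 kept their order on each length. Neighbours outside those 69, such as *Dcc* and *Nfia*, had no order that held on each length and in every embryo. Among the paired box (PAX) genes 1 of 9, *Pax6*, the master factor of cortical radial glia, exceeded 3 counts in any library, at 201 ± 25.6 CPM.

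Region markers placed the tissue in the dorsal telencephalon. All 19 genes of dorsal telencephalic identity reached 1 CPM and 18 reached 10 CPM, among them *Zbtb20* (721 ± 54.1 CPM), *Lhx2* (288 ± 28.2 CPM) and *Emx1* (106 ± 10.3 CPM). All 31 readable genes of hindbrain and spinal cord identity, mainly *Hox* genes, had at most 3 counts in every library, and their summed level was 0. Of 32 genes of midbrain and diencephalic identity 29 had at most 3 counts in every library. The exception in level was *Lhx9* at 37.1 ± 5.81 CPM.

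Most of the marker counts lay on the lists for progenitors and projection neurons. The deep-layer and subplate list summed to 12363 to 15233 CPM. *Nfib* (4810 CPM) and *Nfia* (4353 CPM), factors of progenitors as well as neurons, made up most of that sum. In bulk tissue, fewer cells of a type and less RNA per cell cannot be told apart, so marker levels are levels of RNA and not cell numbers. All 22 readable apical progenitor genes reached 1 CPM and 12 reached 100 CPM. They included the adherens junction cadherin *Cdh2* (1634 ± 59.2 CPM), the filament genes *Vim* (393 ± 33.6 CPM) and *Nes* (289 ± 25.5 CPM), the receptor *Notch1* (173 to 218 CPM) and *Sox9* (86.9 ± 3.23 CPM). Per kb of exons and per kb of span *Vim* stood above *Lhx2*, and *Sox9* above *Pax6*, in all 7 embryos. Of 16 intermediate progenitor genes 15 reached 1 CPM, with *Eomes*, the defining factor of these cells, at 147 to 215 CPM and a median of 184 CPM, and *Neurog2*, the proneural factor, at 87.4 ± 7.70 CPM.

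All 18 readable genes of young projection neurons reached 1 CPM and 15 reached 100 CPM. The microtubule proteins *Map2* (1532 ± 173 CPM) and *Dcx* (601 ± 139 CPM), the adhesion molecule *Ncam1* (786 ± 101 CPM) and *Tbr1*, a factor of the earliest cortical neurons (180 ± 43.3 CPM), were among them. Of 17 genes of deep-layer and subplate neurons 14 reached 10 CPM, *Bcl11b* at 647 ± 129 CPM and *Foxp2* at 545 ± 52.9 CPM. Genes that later mark upper layers were also present: 9 of 10 reached 10 CPM, among them *Cux1* at 681 ± 50.7 CPM.

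Cajal-Retzius genes were uneven. *Reln*, the secreted signal of these cells, stood at 491 ± 43.2 CPM, whereas the other 10 genes were each under 40 CPM, with *Ebf3* at 38.4 ± 6.19 CPM and *Trp73* at 13.6 ± 3.47 CPM. The list of GABAergic and ganglionic eminence genes summed to 4697 to 5475 CPM, but *Meis2*, *Npas3*, *Foxp1*, *Erbb4* and *Zfhx3*, the 5 of its 30 genes at 100 CPM or more, made up most of that sum, and some of them are also expressed in cortical cells. Its defining genes were low: *Gad2*, an enzyme of GABA synthesis, ranged from 3.53 CPM in H through a median of 23.9 CPM to 34.7 CPM in B, and 8 genes had at most 3 counts in every library.

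Other cell types gave little RNA. No gene on the lists for microglia, endothelial cells, pericytes, erythroid cells, oligodendrocyte lineage, astrocytes, or cortical hem and choroid plexus reached 100 CPM. Microglial *Cx3cr1*, the fractalkine receptor, was at 4.35 ± 2.42 CPM and *Aif1* had at most 1 count in a library. Endothelial *Pecam1* was at 8.68 ± 2.16 CPM and pericyte *Pdgfrb* at 5.77 ± 0.839 CPM. *Ttr*, the abundant transthyretin of choroid plexus, had 1 count in B and 0 in the other 6 libraries. *Fn1*, fibronectin, was the 1 meningeal gene at 100 CPM or more (191 ± 30.5 CPM).

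**Figure D3:**
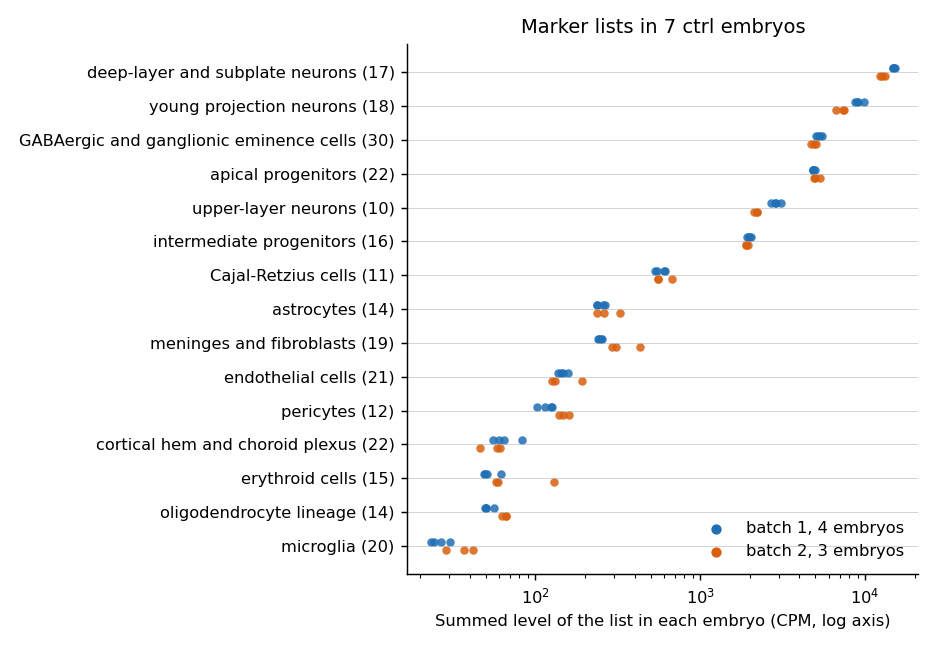
Summed level of each cell type list in each ctrl embryo (CPM, log axis), with batch 1 in blue, batch 2 in orange and the number of readable genes in brackets. Neuronal and progenitor lists sum to over 1000 CPM except Cajal-Retzius cells (532 to 676 CPM), the lists for blood, vessel, glial and meningeal cells to under 1000 CPM, and the highest orange point of the erythroid, meningeal, endothelial and astrocyte lists is embryo F. *Nfib* and *Nfia* make up most of the deep-layer sum.

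Embryo F stood apart in non-neural genes. Its *Col3a1*, a fibrillar collagen, was at 34.6 CPM against 0.763 to 3.86 CPM in the other 6, its *Hbb-y*, an embryonic globin, at 89.8 CPM against 32.6 to 42.9 CPM, and its *Igf2* at 25.1 CPM against 4.41 to 8.58 CPM. F was also the shallowest library, and its 34.6 CPM of *Col3a1* came from 55 counts. The meningeal list summed to 428 CPM in F and to 238 to 310 CPM in the others, the erythroid list to 129 CPM and 48.6 to 61.9 CPM.

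The genes that the wider study targeted or used were present at moderate levels. *Ino80*, the ATPase of a chromatin remodelling complex, was at 118 ± 7.41 CPM, with A the lowest embryo and I the highest. *Trp53*, which encodes p53, was at 42.6 ± 5.39 CPM. *Emx1*, expressed in dorsal telencephalic progenitors, was at 106 ± 10.3 CPM, and per kb it stood above *Ino80* in all 7 embryos on both lengths.

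Pairs of embryos from different batches differed more, in the median, than pairs from the same batch. Over the 12 pairs of embryos from different batches the median absolute log2 difference of a gene was 0.135 to 0.190, and over the 9 pairs within a batch it was 0.0915 to 0.140, so the ranges overlapped at their ends. Littermates A and B (same batch) differed by 0.107, H and I (same batch) by 0.140, and D and F (different batches) by 0.158. Batch went with litter except for litter 5, whose 2 embryos also differed in sex, so that batch, litter and depth cannot be told apart in full.

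Between batch 2 and batch 1, 864 of 11736 genes tested (7.36%) passed a false discovery rate of 0.05 in edgeR's quasi-likelihood test, 347 higher in batch 2 (2.96%) and 517 lower (4.41%). Scaled by total counts instead, 945 passed, 561 higher and 384 lower, and the median of all genes was then 0.07 on the log2 scale against 0.01. The called genes differed by a median of 0.49 on the log2 scale, and 140 by more than 1. The number called fell to 432 without embryo B, 463 without C and 212 without H. Without litter 7 (H and I) batch 2 was F alone, with no replicate. For that setting only effect sizes are given. *Kcnq3*, a potassium channel gene, had the smallest p. It read 878, 1068, 1034 and 865 CPM in A to D and 498, 437 and 543 CPM in F, H and I, a log2 change of -0.94 ± 0.089 (SE; edgeR adjusted p = 0.000393). *Robo2*, a receptor for the repulsive guidance cue Slit, read 1814 to 2002 CPM in batch 1 and 1304 to 1365 CPM in batch 2 (log2 change -0.46, edgeR adjusted p = 0.000709). The other 3 genes of smallest p that were lower were *Nav3* (log2 change -0.81), *Pdzrn4* (-1.42) and *Ldb2* (-1.20). Among the 5 of smallest p that were higher, *Filip1l* (2.99), *Gm17106* (3.26) and *Gm15459* (4.57) read under 7 CPM in each batch 1 embryo, and *Pvt1* rose by 0.66. *Filip1l* read 6.91 CPM in F, 32.6 CPM in H and 34.3 CPM in I, and *Gm17106* read 6.91, 24.3 and 26.8 CPM. The rise of these genes was thus mostly in litter 7. *Pvt1* read 64.1, 75.4 and 63.8 CPM in the same order, against 42.7 to 45.5 CPM in batch 1. Of the 4 tissue markers *Auts2* fell in batch 2 by 0.23 on the log2 scale (edgeR adjusted p = 0.00651), a call lost by the likelihood-ratio test and without litter 5, and *Dcc* (-0.14), *Nfib* (-0.15) and *Nfia* (-0.08) did not pass.

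Of 18 young projection neuron genes 14 were lower in batch 2 and 0 higher, with a list median of -0.42 on the log2 scale against 0.01 over all genes tested. Over all genes tested 4.41% were lower and 2.96% higher, the shares to set beside each count by list or length that follows. *Dcx* read 628 to 780 CPM in batch 1 and 430 to 483 CPM in batch 2 (log2 change -0.57, edgeR adjusted p = 0.00172), and *Syt1*, the calcium sensor of synaptic vesicles, fell by 0.79 on the log2 scale (edgeR adjusted p = 0.00401). The summed level of the list was 8627 to 9823 CPM in batch 1 and 6630 to 7440 CPM in batch 2, and the ranges did not overlap. Without litter 7, which left F alone in batch 2, 17 of 18 lay below 0, with a median of -0.36. Leaving out single embryos gave 6 to 14 lower. Among upper-layer genes 6 of 9 were lower (median -0.49), *Cux2* by -0.66 among them. Without litter 7 the median was -0.48. Of 14 deep-layer genes tested 4 were lower, *Ldb2*, *Sox5*, *Bcl11b* and *Tbr1*, with a list median of -0.07.

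Among axon guidance receptors and ligands 18 of 55 tested were lower and 1 was higher in batch 2, with a median of -0.21. The 18 included *Chl1* (-1.41), *Plxna4*, a semaphorin co-receptor (-0.61), *Robo1* (-0.44) and *Epha5* (-0.33), and the 1 higher was *Robo3* (1.10). Without litter 7 the median was -0.24, and 39 of 55 lay below 0. Of 17 GABAergic genes tested 5 were lower, with a median of -0.79, which ranged from -0.35 without B to -1.21 without I. Its members went both ways, with 11 of the 17 below 0 and 6 above. Among the 9 genes with at least 10 counts in every library the median was 0.13, 6 lay above 0 and 1 was lower. That filter drops genes that are low in batch 2, *Gad2* among them, so it cannot show the direction of the list. *Gad2* read 23.9 to 34.7 CPM in batch 1 and 3.53 to 12.6 CPM in batch 2 (log2 change -1.76, edgeR adjusted p = 0.00277), and *Erbb4* fell by 1.18 on the log2 scale. Without litter 7 the median of the 19 GABAergic genes tested was -0.46.

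**Figure D4:**
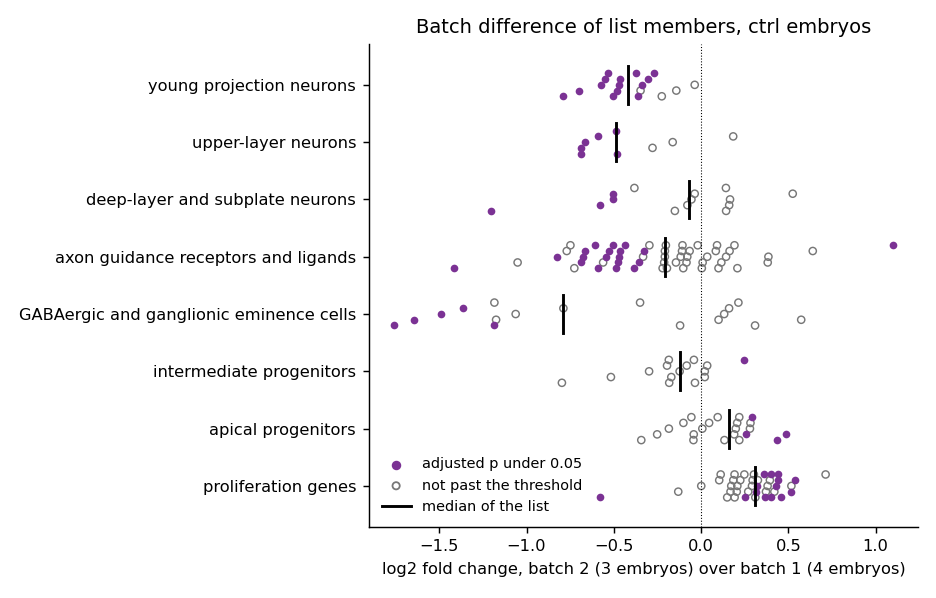
Log2 fold change of batch 2 (3 embryos) over batch 1 (4 embryos) for each tested member of 8 lists, filled where the adjusted p in edgeR was under 0.05, with a bar at the list median. Young and upper-layer neuron genes lie mostly below 0 (medians -0.42 and -0.49) and proliferation genes mostly above it (median 0.31).

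Proliferation genes lay the other way. Of 40 tested 13 were higher in batch 2 and 1, *Ube2c*, was lower, with a list median of 0.31 and 38 of 40 above 0. The 13 included the replication helicase genes *Mcm2* (0.52), *Mcm7* (0.46), *Mcm5* (0.44) and *Mcm4* (0.40), the cyclins *Ccnd1* (0.54) and *Ccnd2* (0.37), *Top2a*, topoisomerase II (0.32), the spindle midzone gene *Prc1* (0.43) and the mitotic kinesin *Kif11* (0.25), whereas *Mki67*, the Ki-67 antigen, was at 739 ± 20.8 CPM in batch 1 and 779 ± 30.1 CPM in batch 2 (0.10) and did not pass. Without litter 7, which left F alone in batch 2, 35 of 40 lay above 0, with a median of 0.27. Leaving out single embryos gave 4 to 14 higher. Of 22 apical progenitor genes 4 were higher, *Hmga2*, *Emx2*, *Prom1* and *Lhx2*, with a list median of 0.16. Leaving out any embryo cut the 4 to between 0 (without B, C or H) and 2 (without D, F or I), and DESeq2 called 1. Without litter 7 the list median was 0.09. Of 15 intermediate progenitor genes 1, *Chd7*, was higher, which cannot be told apart from the 2.96% of all genes tested.

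Promoters of proliferation genes are shown because the members of this list moved together. The letters TTTGAA, those of the cell cycle homology element of mitotic genes, were searched on either strand of 300 bases from RefSeq (250 before to 50 after the start). They occurred in 18 of 32 proliferation promoters found (56.25%), in 5 of the 10 found among those higher in batch 2, in 2 of 13 young neuron promoters and in 4893 of 27025 promoters in all (18.1%). The E2F letters TTTGGCGC, which do not hold TTTGAA, occurred in 3 of 32 proliferation promoters and in 0.537% of all. No other spelling of E2F sites was searched, so these numbers do not count all such sites. The 3 promoters printed, with matches in capitals, are those of *Top2a* (chr11:99024140-99024439, minus strand), *Prc1* (chr7:80294201-80294500, plus strand) and *Kif11* (chr19:37376132-37376431, plus strand) on GRCm38.p6:
Top2a: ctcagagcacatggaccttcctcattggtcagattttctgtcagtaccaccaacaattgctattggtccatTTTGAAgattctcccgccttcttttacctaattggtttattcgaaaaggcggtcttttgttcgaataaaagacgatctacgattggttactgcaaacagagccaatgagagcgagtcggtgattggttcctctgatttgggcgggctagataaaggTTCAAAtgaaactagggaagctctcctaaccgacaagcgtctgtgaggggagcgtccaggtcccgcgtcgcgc
Prc1: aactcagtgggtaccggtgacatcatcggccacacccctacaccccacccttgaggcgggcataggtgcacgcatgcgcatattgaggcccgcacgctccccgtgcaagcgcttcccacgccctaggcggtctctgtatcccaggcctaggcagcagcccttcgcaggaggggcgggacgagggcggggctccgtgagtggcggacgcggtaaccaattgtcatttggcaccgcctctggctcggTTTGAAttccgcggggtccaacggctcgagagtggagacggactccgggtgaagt
Kif11: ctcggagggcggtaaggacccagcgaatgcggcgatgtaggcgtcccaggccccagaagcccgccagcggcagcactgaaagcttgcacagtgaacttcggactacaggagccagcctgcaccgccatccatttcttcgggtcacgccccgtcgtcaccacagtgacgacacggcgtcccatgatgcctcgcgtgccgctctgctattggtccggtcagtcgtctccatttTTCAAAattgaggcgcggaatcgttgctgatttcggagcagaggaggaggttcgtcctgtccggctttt
A match is a run of letters and does not show that a factor binds there.

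The batch difference also went with gene length. Of the 216 protein-coding genes over 500 kb that were tested, 70 were lower in batch 2 and 6 higher, with a median of -0.20, and of the 1964 of 1 to 10 kb, 37 were lower and 39 higher, with a median of 0.02. Many young neuron and guidance genes are long, and the part of length in their difference was not tested. The batch 2 libraries were also the shallowest, and H and I held more reads outside genes, whose part was not tested either.

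Litter 5 gave 1 embryo to each batch. The other 5 embryos were compared without it, H and I against A, B and C, and 374 genes were lower and 439 higher. Of the 374 lower genes 344 (92.0%) were also lower in F than in its littermate D, against 6405 of all 12314 genes tested. Of the 439 higher genes 178 were higher in F than in D and 258 were lower. These shares rest on 1 pair of embryos.

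Between male and female embryos, 5 of 11736 genes (0.0426%) passed in edgeR's test, 4 higher in males (0.0341%) and 1 lower (0.00852%). *Xist* read 1292 to 1395 CPM in the 4 females and 0.322 to 2.68 CPM in the 3 males. The Y-linked *Uty* read 217 to 233 CPM in males and 0 to 1.76 CPM in females, *Kdm5d* 84.8 to 92.8 and 0 to 0.441 CPM, *Eif2s3y* 60.5 to 86.0 and 0 to 1.32 CPM, and *Ddx3y* 32.9 to 44.8 and 0 to 2.20 CPM. The labelled sex held in all 7 embryos. In this fit no autosomal gene of 11322 passed in edgeR, while 369 of them had an unadjusted p under 0.05. Litters 1, 5 and 7 each gave 1 male and 1 female, and with litter as a block 367 genes passed, 351 of them autosomal, 286 higher and 65 lower in males. Of the 367 genes 221 were also called between batches, against 7.36% of all genes tested, so many of them also differed between batches. Without litter 5, whose embryos were in different batches, the block gave 365. Autosomal differences between the sexes therefore depended on the fit, and the blocked fits rest on 3 and 2 pairs of embryos. *Kdm6a*, the X-linked partner of *Uty*, chosen after its values were seen, read 205 to 242 CPM in females and 146 to 161 CPM in males, and it did not pass without a block (edgeR adjusted p = 0.116) but passed with litter as a block (log2 change -0.57, edgeR adjusted p = 0.000102).

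Across embryos the spread of most genes was above that of counting alone but under 2 times it. Among 5729 genes with a mean of at least 100 counts the median coefficient of variation (CV) was 9.51%, against 6.79% from counting alone. Of these genes 1405 (24.5%) had a CV at least 2 times their counting CV, and 1139 had a CV at or under it. The highest ratios of CV to counting CV were those of *CT010467.1*, *Xist* and *Uty*. Then came *Nrg1* with a CV of 19.5% against 0.988%, *Plxna4* (25.9% against 1.39%), *Kirrel3*, *Sox5*, *Cdh13*, *Nrxn3* and *Rbfox1*. Counting CV falls as the level rises, so this ratio favours abundant genes. The CV of *Nrg1* itself lay under the 95th percentile of the 5729 genes, 22.2%. The 7 genes from *Nrg1* on are an ErbB ligand gene and neuronal adhesion, guidance, transcription factor and RNA-binding genes, and each was lower in batch 2. The lowest ratio was that of *Tnks2*, a tankyrase, at 185 to 191 CPM in the 7 embryos, with *Phtf1*, *Tmem167*, *Cog5* and *Copa* among the next 5. The CV of *Tnks2*, 1.01%, lay under the 4.50% from counting alone. A spread under counting error cannot show that a gene is steadier than others. The biological CV over all genes by edgeR was 0.107 over the 7 embryos, 0.0692 in batch 1 and 0.0843 in batch 2.

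**Figure D5:**
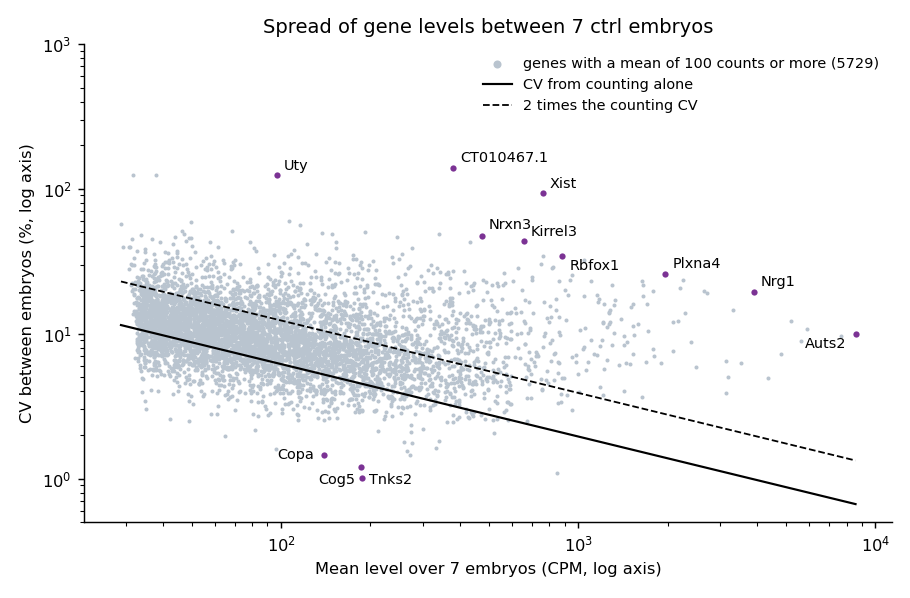
CV between the 7 ctrl embryos (%, log axis) against mean level (CPM, log axis) for 5729 genes, with the CV expected from counting alone as a solid line and 2 times that as a dashed line. *Xist*, *Uty* and *CT010467.1* lie far above the lines, *Tnks2*, *Cog5* and *Copa* below them.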

How the data were processed

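The ctrl libraries were read from the gene counts that the authors deposited, 1 table per embryo. Per the labels and the study's methods, reads were demultiplexed (bcl2fastq 2.17), trimmed (cutadapt 1.13), aligned to mm10 (STAR 2.5.2a), deduplicated by molecular identifier (UMI-tools 0.5.3) and counted (HTSeq 0.6.1p1, intersection-nonempty). The counting feature was not given in the sources used here. Summary rows of unassigned reads were left out of totals. GENCODE M21 named 51719 of 51912 identifiers.

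Libraries held 1539303 to 5205035 counts. Levels are CPM with TMM factors. Batch and sex were each tested with edgeR 4.0.16 (filterByExpr, quasi-likelihood, Benjamini-Hochberg, 0.05) over all genes, checked first on simulated data, and neighbours in level with two-sided exact permutation tests. Alternatives used RLE or total-count scaling, other filters, DESeq2 1.42.0, a litter block for sex and left-out embryos. Each batch's replicates are separate embryos. Named by rule were the 20 most abundant genes, the top 5 of each class, the top 15 transcription factors and the list members highest per kb, the 5 of smallest p in each direction, the 10 at each end of the spread, the tissue markers, *Ino80*, *Trp53* and *Emx1*. Other list members were named for their known roles after their values were seen. A few named items are not reported here. The members and lists were chosen with earlier results of these data known.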

Additional observations from a re-analysis of the deposited data

Results flagged for a closer look

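Over 75 measures, each with 7 embryos, 4 had an embryo set far from the others. Chance flags about 1 in 20 groups that are independent. These measures come from the same embryos and are not independent, so that rate cannot say whether the 4 arose by chance. Embryo H held a summed level of 5363 CPM over the apical progenitor genes, against 4801 to 4997 CPM in the others. Embryo F held 129 CPM over erythroid genes, against 48.6 to 61.9 CPM, 428 CPM over meningeal and fibroblast genes, against 238 to 310 CPM, and 327 CPM over astrocyte genes, against 237 to 265 CPM. F was the shallowest library, and the part of depth in these values was not tested.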

How the results depend on the processing

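Gene class shares and the numbers of genes above each level kept within the spread between embryos, or within 1.5 times, under every alternative run. The 864 genes called between batches became 1633 with no filter, 7 at a false discovery rate of 0.001, 212 to 829 when single embryos were left out, and 122 without litter 7. The 5 genes called between sexes became 103 with no filter, 0 with at least 10 counts in every library in edgeR (340 at an unadjusted p under 0.05), 11 by the likelihood-ratio test, 11 with batch as a covariate, 367 with litter as a block and 365 with the same block without litter 5, and stayed at 5 to 5 with single embryos left out. DESeq2 called 585 genes between batches and 7 between sexes. Of the pairs of neighbours ordered by exon length, 0 passed, and 0 to 0 with single embryos left out. By gene span 436 passed, and 437 by bases on no other gene of the strand. The pairs were picked as neighbours per kb of exons, so they lay close on that length by choice. The numbers by the other lengths therefore cannot be compared with it. The 1405 genes at 2 times the counting CV became 709 in batch 2 alone and 1194 to 1579 with single embryos left out. The 14 genes named first by p or as markers kept their direction in all 215 alternatives. Most of them were picked by p in the same libraries that the alternatives refit, so a kept direction is no independent support. *Auts2* no longer passed by the likelihood-ratio test or without litter 5. The causes were not tested. Alternatives without litter 7 or litter 5, and the bases on no other gene, were chosen after seeing the data. By embryo letter no paired analysis was possible, because each letter names 1 ctrl embryo. Litters pair 3 males with 3 females, and that block is the litter block above. The 1539303 counts of the shallowest library put 3 counts at 1.88 CPM, which limits what can be read of rare cell types.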
